A study of Mus musculus with 11 samples.

Results

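The results concern 10 genes of haem breakdown and iron handling, out of the 32285 genes in the count tables of a single-cell RNA sequencing (scRNA-seq) study of mouse brain. They were taken by symbol. Hmox1 breaks down haem, Blvra and Blvrb are biliverdin reductases listed with it, and Fth1 and Ftl1 are the ferritin chains that store iron. Slc40a1 is the iron exporter ferroportin, and Trf and Tfrc are transferrin and its receptor. Cd163 is a receptor for haemoglobin bound to haptoglobin, and Slc11a1 a metal transporter of the phagosome. The unique molecular identifiers (UMIs, 1 per captured transcript) of each gene were summed per library and marker-defined cell type, and the 4 groups were compared beside the haemoglobin share of each library.

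The study asked how loss of Lrg1, a secreted leucine-rich glycoprotein, changes the brain in cerebral ischemia-reperfusion injury. The right brain was dissociated, and 11 libraries were sequenced: sham + WT (replicates 1, 2 and 3), sham + Lrg1-/- (replicates 1, 2 and 5), MCAO/R + WT (replicates 1 and 2) and MCAO/R + Lrg1-/- (replicates 1, 2 and 5). MCAO/R is an occlusion of the middle cerebral artery with a nylon filament followed by reperfusion. Sham mice were operated on as controls, with no filament passed into the carotid. The methods list several reperfusion times and name none for these libraries, while the discussion places the knockout data at 1 hour. The WT mice were adult C57BL/6 males from a university supplier. The Lrg1-/- mice were adult and of a sex not given in the sources used here. They carried a conventional knockout made by a company and were backcrossed to C57BL/6N mice. The methods give them a higher age than the WT mice, so genotype, source and age of the mice cannot be told apart. There are as many libraries as mice in the experiment, so each was taken as 1 mouse, and p-values measure the spread between mice of a group together with that of the preparation. Every suspension passed a red blood cell lysis step before capture.

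Haem released from haemoglobin is toxic and is opened by haem oxygenase (Hmox1) into iron, carbon monoxide and biliverdin. Blvra reduces this biliverdin to bilirubin, while Blvrb, the other biliverdin reductase, is only listed with haem breakdown here. The iron is stored in ferritin or leaves the cell through ferroportin. In the brain, macrophages at its borders and microglia take up haem and haemoglobin, endothelial cells carry iron across the blood-brain barrier with Tfrc and Slc40a1, and oligodendrocytes are rich in ferritin and transferrin. Iron regulatory proteins bind a short hairpin in some of these transcripts, the iron-responsive element, which in a 5′ untranslated region (UTR) controls translation and in the 3′ UTR of Tfrc controls the stability of the transcript.

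A search of 1 reference transcript of each of the 10 genes for this hairpin (an unpaired C, 5 paired bases and the loop CAGTGN) found it in 4 of them. A search of every protein-coding transcript, which is wider per gene, found it in 294 of 21877 protein-coding genes (1.34%). The 10 genes were chosen for their roles in haem and iron, so these counts side by side are not a test. The sites are shown because they mark the members that iron itself can regulate after transcription, through translation in Fth1, Ftl1 and Slc40a1, which transcript counts do not measure, and through transcript decay in Tfrc, which they do. The sequences are from the GENCODE transcripts on mm10, read 5′ to 3′, and the capitals mark the bulged C and the loop.
Fth1: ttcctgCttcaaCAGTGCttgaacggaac
Ftl1: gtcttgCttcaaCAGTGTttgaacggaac
Slc40a1: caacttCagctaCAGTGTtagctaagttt
Tfrc 1: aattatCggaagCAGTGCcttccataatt
Tfrc 2: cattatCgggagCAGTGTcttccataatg
Tfrc 3: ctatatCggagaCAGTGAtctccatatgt
Tfrc 4: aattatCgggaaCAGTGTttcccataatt

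The Fth1 site lies in the 5′ UTR in exon 1 (chr19:9982732-9982760, plus strand), as do the Ftl1 site (chr7:45459779-45459807, minus strand) and the Slc40a1 site (chr1:45925465-45925493, minus strand). The 4 Tfrc sites lie in the 3′ UTR in exon 19 on the plus strand, the first at chr16:32631219-32631247 and the last at chr16:32631710-32631738. The transcripts read for Hmox1, Blvra, Blvrb, Trf, Cd163 and Slc11a1 held no match to these letters. In the RefSeq promoters (GRCm38.p6, from 250 bases before to 50 bases after the start site), 7 of the 10 members were matched, and those of Hmox1, Slc40a1 and Trf were not searched. The core of the antioxidant response element, TGACNNNGC on either strand, occurred in 1 of the 7, Blvra, and in 12.4% of all 32851 promoters.

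After filters on genes (more than 500), UMIs (more than 1000) and mitochondrial UMIs (under 25%), and after removal of doublets, 125301 of 155804 cell barcodes were retained, and 97216 of these fell in 18 cell types named by markers ("-like"). WT libraries held 110423176 to 144393940 UMIs and Lrg1-/- libraries 37159497 to 171813031, with 6327 to 11222 and 3160 to 7633.5 UMIs per retained cell at the median. Lrg1 itself had 192 to 662 UMIs in the sham + WT libraries, 16233 to 17868 in the MCAO/R + WT libraries and 0 to 1 in the Lrg1-/- libraries. MCAO/R + Lrg1-/- replicate 5 stood apart by size, with 32130 retained cells, of which 11077 fell in a single cluster of no named type. That cluster was led by Arg1, Spp1, Apoc2 and Chil3 and scored highest for monocyte markers (1.22), with neutrophil markers close (0.855). It is not part of the monocyte- or macrophage-like values, and the library held 736 monocyte-like cells. Over all barcodes, the library held 79175 of the 176461 Hmox1 UMIs of the series. Clusters that scored highest for microglial markers but held fewer than the 3 markers needed for a name came mostly from MCAO/R libraries and are not part of the microglial-like values. They held 1791 and 319 cells in MCAO/R + WT replicates 1 and 2, beside 2236 and 4005 microglial-like cells. In MCAO/R + Lrg1-/- replicates 1, 2 and 5 they held 91, 1858 and 1039 cells, beside 195, 1328 and 3425. The share of cells left out of the microglial-like values thus differed between libraries. Any pair of libraries shared 0.233 to 1.24% of the barcodes of the smaller one.

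Lrg1-/- libraries carried far more haemoglobin RNA than WT libraries, after sham surgery and after MCAO/R. Alpha (Hba-a1, Hba-a2) and beta (Hbb-bt, Hbb-bs) haemoglobin transcripts, 4 in all, made up 0.0195%, 0.0121% and 0.0136% of the UMIs of retained cells in the sham + WT libraries and 0.0148% and 0.00710% in the MCAO/R + WT libraries. In the sham + Lrg1-/- libraries they made up 3.46%, 3.75% and 9.08%, and in the MCAO/R + Lrg1-/- libraries 4.44%, 7.78% and 4.25%. The ranges of the genotypes did not overlap, and within each genotype those of sham and MCAO/R did. The genotypes differed by 5.45 percentage points (exact permutation test within surgery groups, two-sided, p = 0.005, the smallest that 200 arrangements allow). Within sham mice alone and within MCAO/R mice alone the exact p was 0.1, the smallest that either allows.

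**Figure D1:**
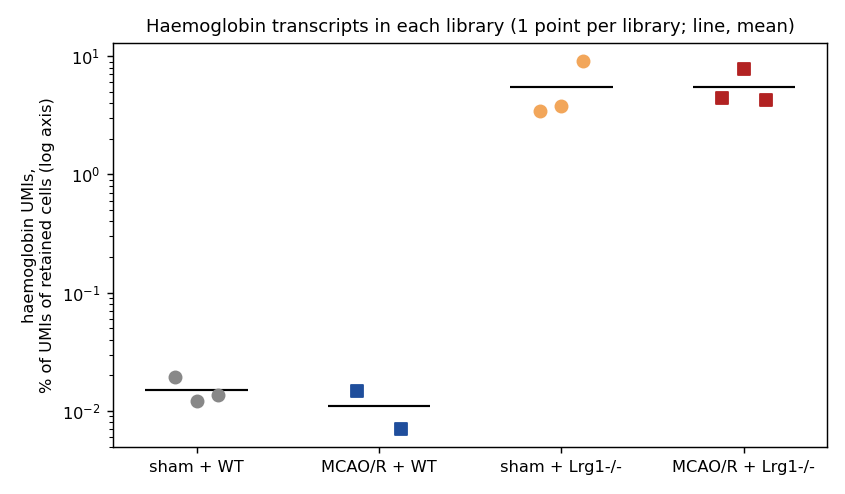
Haemoglobin UMIs as a percentage of the UMIs of retained cells (log axis) in each of the 4 groups, with 1 point per library. The 6 Lrg1-/- libraries lie between 3.46 and 9.08% and the 5 WT libraries between 0.00710 and 0.0195%.

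Haemoglobin RNA was found in all cell types of the Lrg1-/- libraries. In microglial-like cells it was 0.920 to 2.55% of UMIs in the MCAO/R + Lrg1-/- libraries against 0.00180 to 0.00205% in the MCAO/R + WT libraries, and 99.5 to 100% of the cells held at least 1 such UMI against 10.3 to 17.2%. The cells named red blood cell-like held 16.6 to 61.9% haemoglobin in the Lrg1-/- libraries but 0.00370 to 3.01% in the WT libraries, so the name goes against the data in WT mice. Every comparison of genotypes below is also a comparison of libraries with and without this RNA, and these cannot be told apart. Between the surgery groups of 1 genotype the ranges overlapped in most cell types. They did not in neuron-like cells of Lrg1-/- libraries (0.20 to 1.16% after sham surgery and 1.89 to 4.18% after MCAO/R) or neural progenitor-like cells (0.343% in the 1 sham library and 0.429 to 1.22%). In WT libraries they did not in astrocyte-, fibroblast- and red blood cell-like cells.

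Transcripts of other cell types moved with genotype as well. After MCAO/R the choroid plexus transcripts Ttr, Enpp2 and Folr1 were called higher in Lrg1-/- in 36 of 41 tests over cell types and lower in 0, and the neutrophil transcripts S100a8, S100a9 and Retnlg higher in 28 of 42 and lower in 0. The 6 immediate early genes that respond to dissociation (Fos, Jun, Junb, Egr1, Atf3 and Ier2) were called lower in 33 of 84 tests and higher in 0. In sham mice the choroid plexus transcripts were called higher in Lrg1-/- in 30 and lower in 1 of 38 tests, the neutrophil transcripts higher in 10 and lower in 0 of 36, and the immediate early genes lower in 16 and higher in 5 of 78. After MCAO/R in Lrg1-/- mice the immediate early genes were called lower in 18 of 78 tests, and in WT mice lower in 3 and higher in 1 of 84. In droplet data, RNA free in the suspension adds UMIs to cells that do not make them. The part of these in the results was not tested, except where a value is given below.

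The 10 genes were tested in up to 16 cell types with edgeR's quasi-likelihood test, and a gene was called at an adjusted p below 0.05 with a change above 0.25 on the natural-log scale. A difference given with an adjusted p is on the log2 scale, with ± for its SE, and a call was lost when it missed either limit under an alternative setting. Settings named beside a lost call are a library left out, cells thinned to 1000 UMIs, cells held to 10% mitochondrial UMIs, doublets kept, another clustering, other choices of cells or counts, and a fit of only the libraries compared. The log2 difference is given with them where it or the fold moved by over 1.5 times. A fit with the replicate number as a block is named only where no other setting lost the call. Levels are in CPM, UMIs of a gene scaled to 1000000 UMIs of its library and cell type with the trimmed mean of M values, and the 3′ tags do not allow levels of different genes to be compared. In MCAO/R + WT against sham + WT mice, 21 of 132 tests of members were called, 16 higher and 5 lower, beside 7.47% of all genes tested in the same cell types (3.74% higher and 3.73% lower). In MCAO/R + Lrg1-/- against sham + Lrg1-/- mice, 34 of 119 were called, 28 higher and 6 lower, beside 9.63% of all genes (4.99% higher and 4.64% lower). Between genotypes, 30 of 130 were called after MCAO/R, 24 higher and 6 lower in Lrg1-/-, beside 13.9% of all genes (7.19% higher and 6.68% lower). In sham mice 15 of 119 were called, 10 higher and 5 lower, beside 11% of all genes (5.6% higher and 5.43% lower), which is close to the 12.6% of members. Cell types differed in this background, and after MCAO/R the genotypes differed in 29.9% of all genes in microglial-like cells and 31.4% in oligodendrocyte-like cells. The surgery response differed between genotypes in 4 of 114 tests, 3 higher and 1 lower, beside 2.07% of all genes (1.06% and 1.01%), which is close to the 3.51% of members. The comparisons share groups, so their values are given side by side and not set against each other unless the difference itself was tested.

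These counts fell in several fits that left out 1 library. Without either MCAO/R + WT replicate that group held 1 library, so calls lost there, here and below, need not rest on the replicate left out. The share of all genes called fell in each of the fits given here too. This share fell from 7.47% to 5.22% in WT without sham + WT replicate 2. In Lrg1-/- mice it fell from 9.63% to 6.19% and 5.64% without sham + Lrg1-/- replicates 1 and 2. For the sham genotypes it fell from 11% to 6.22% and 6.97% without sham + Lrg1-/- replicates 2 and 5. Without sham + WT replicates 2 and 3 it was 5.30% and 5.76%. For the difference in response the share fell from 2.07% to 1.11% without sham + Lrg1-/- replicate 2. The count after MCAO/R in WT fell from 21 to 8 without MCAO/R + WT replicate 1 and to 13 without sham + WT replicate 2. In Lrg1-/- mice it fell from 34 to 22 without sham + Lrg1-/- replicate 1 and to 17 without replicate 2. The genotype count after MCAO/R fell from 30 to 18 without MCAO/R + WT replicate 1 and to 9 without replicate 2. The sham genotype count fell from 15 to 8 without sham + Lrg1-/- replicate 2 or 5, to 6 without sham + WT replicate 2 and to 8 without replicate 3. The 4 calls of the difference in response became 2 without sham + Lrg1-/- replicate 2 and 1 without MCAO/R + WT replicate 2. Without any 1 library, in turn, 7 of the 21, 17 of the 34, 9 of the 30, 5 of the 15 and 1 of the 4 were kept every time.

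The clusters that make up a cell type were not filled alike in the groups, so a difference within a cell type can also be one between clusters. Of microglial-like cells, cluster 1.0 held 75.6 to 91.2% in the sham + WT libraries, 35.2 to 49.4% in sham + Lrg1-/-, 32.1 to 37.97% in MCAO/R + WT and 0.613 to 10.3% in MCAO/R + Lrg1-/-, and cluster 1.1 the rest. Of endothelial-like cells, cluster 2.0 held 70.9 to 89.8% and 65.4 to 78.5% in the sham groups (WT, then Lrg1-/-) but 0.998 to 2.53% and 1.07 to 13.1% after MCAO/R. Clusters 2.1 and 2.2, the latter led by the venous genes Plvap and Ackr1, held most of the others after MCAO/R. Of oligodendrocyte-like cells, cluster 3.1, led by Klk6, held 14.1 to 20.8% in the MCAO/R + WT libraries and 26.6 to 56.5% in MCAO/R + Lrg1-/-. Of choroid plexus epithelial-like cells, cluster 4.0, led by Ttr, held 33.9 to 37.9% in sham + WT and 58.8 to 65.9% in sham + Lrg1-/- libraries. Of macrophage-like cells, cluster 0.0.3 held 15.6 to 20.5% in sham + WT, 25 to 58.6% in sham + Lrg1-/-, 4 to 9.09% in MCAO/R + WT and 25.1 to 66.7% in MCAO/R + Lrg1-/- libraries, and cluster 6.1 the rest. Of vascular smooth muscle-like cells, cluster 5.2 held 29.8 to 70.3% and 5.57 to 25.1% in the sham groups. Levels within clusters of at least 20 cells are given below as a description, in CPM not scaled between libraries and with no test, since the clusters were made from the same cells. They were added after the results were seen.

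For each of 86 calls of a surgery or genotype difference in cell types of several clusters, the libraries of both groups were set side by side within each cluster, some of which had only 1 library of a group. They lay apart in the direction of the call within every cluster compared for 42 of the calls, within some clusters for 32 and within none for 7. Those 7 were Hmox1 and Slc11a1 between genotypes after MCAO/R in oligodendrocyte-like cells and Slc40a1 in endothelial-like cells, Blvrb in choroid plexus epithelial-like and Slc40a1 in microglial-like cells of sham mice, and the Lrg1-/- responses of Hmox1 in microglial-like and Slc11a1 in oligodendrocyte-like cells. For the remaining 5 they lay apart the other way in 1 cluster. These were choroid plexus Blvra and Blvrb between genotypes after MCAO/R and Ftl1 in sham mice (cluster 4.1), choroid plexus Slc40a1 after MCAO/R in Lrg1-/- mice (cluster 4.2) and ciliated ependymal Fth1 in sham mice (cluster 11.1). Only calls were counted, which were chosen for a difference between the same libraries, and no such count was made over all genes. The counts describe where the libraries lay and do not test the calls.

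**Figure D2:**
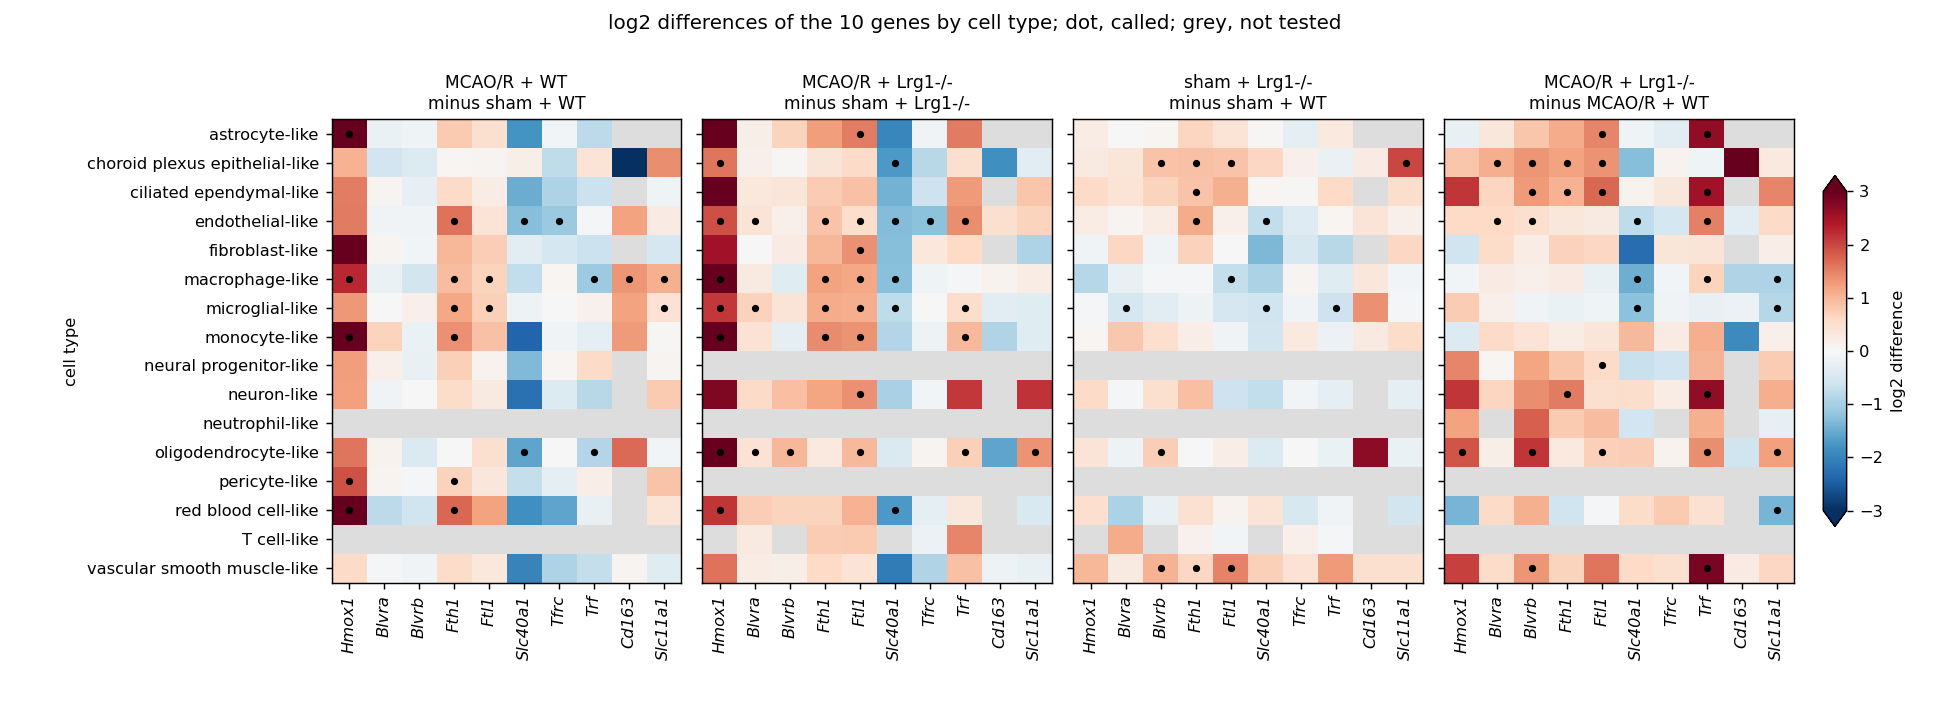
log2 differences of the 10 genes in each cell type for the 4 comparisons of 2 groups, as colours. A dot marks a call and grey a gene or cell type that was not tested, and after MCAO/R, Hmox1 was positive in all 14 cell types tested in WT and all 12 in Lrg1-/- mice, and Slc40a1 negative in 13 of 14 and 12 of 12.

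Hmox1, the inducible haem oxygenase, rose after MCAO/R in macrophage- and monocyte-like cells of both genotypes. It was called in 5 of 14 cell types in WT and in 7 of 12 in Lrg1-/- mice, all higher, and its sign was positive in all of those tested.

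In macrophage-like cells, Hmox1 was at 384, 375 and 396 CPM in the sham + WT libraries and at 2217 and 1498 CPM in the MCAO/R + WT libraries. The same cells held 213, 253 and 162 CPM in the sham + Lrg1-/- libraries and 371, 1929 and 2942 CPM in the MCAO/R + Lrg1-/- libraries. Each MCAO/R library lay above its own sham group, but MCAO/R + Lrg1-/- replicate 1 lay below all 3 sham + WT libraries. The log2 difference was 3.04 ± 0.50 (SE) in Lrg1-/- mice (adjusted p = 0.00217, or 2.45 without MCAO/R + Lrg1-/- replicate 5). In WT mice it was 2.27 ± 0.50 (adjusted p = 0.0108), and it was not called without MCAO/R + WT replicate 1 (adjusted p = 0.0947).

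Monocyte-like cells were 1 cluster, whose leading genes held the monocyte marker Ccr2 but also the antigen presentation genes H2-Aa, H2-Eb1 and H2-Ab1. Dendritic markers scored second in it (3.07, against 4.10 for monocyte markers), so dendritic cells were not told apart from it. These cells held 75.1, 73.3 and 39.1 CPM of Hmox1 in the sham + WT libraries and 1139 and 283 CPM in the MCAO/R + WT libraries. Lrg1-/- libraries held 60.9, 83.4 and 51.9 CPM after sham surgery and 229, 408 and 992 CPM after MCAO/R. No sham library reached any MCAO/R library. The log2 difference was 3.55 ± 0.60 in WT (adjusted p = 0.00599, or 4.21 without MCAO/R + WT replicate 2), not called without MCAO/R + WT replicate 1 (adjusted p = 0.134, log2 difference 2.21). The Lrg1-/- difference was 3.08 ± 0.56 (adjusted p = 0.00426, or 2.31 without MCAO/R + Lrg1-/- replicate 5).

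In microglial-like cells, the resident phagocytes of the brain, Hmox1 was at 85.9, 67.3 and 64.6 CPM in the sham + WT libraries and 162 and 198 CPM in the MCAO/R + WT libraries. In Lrg1-/- mice it was at 61.1, 71.02 and 83.7 CPM after sham surgery and at 78.3, 186 and 643 CPM after MCAO/R. The Lrg1-/- groups overlapped, since MCAO/R + Lrg1-/- replicate 1 lay within the sham range while replicate 5 was the highest of all. The Lrg1-/- response was a log2 difference of 2.11 ± 0.51 (adjusted p = 0.00618), and it was 0.97 without MCAO/R + Lrg1-/- replicate 5, still called. The WT response was not called, although the WT groups did not overlap. For Hmox1, the difference between the responses of the genotypes was called in 0 of 12 cell types by edgeR and in 0 by DESeq2. An unadjusted p under 0.05 (edgeR) was reached in 0.

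Endothelial-like cells, the lining of the vessels, held 19.6, 15.5 and 17.2 CPM in the sham + WT libraries and 71.3 and 30.6 CPM in the MCAO/R + WT libraries. In Lrg1-/- mice they held 15.8, 20.2 and 25.8 CPM after sham surgery and 23.9, 60.5 and 152 CPM after MCAO/R, with overlap. That Lrg1-/- response was a log2 difference of 1.94 ± 0.52 (adjusted p = 0.0199), lost without sham + Lrg1-/- replicate 1 (adjusted p = 0.0825), sham + Lrg1-/- replicate 2 (0.0735) and MCAO/R + Lrg1-/- replicate 5 (0.0586, log2 difference 1.12).

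Astrocyte-like cells held 14.1, 8.91 and 5.46 CPM of Hmox1 in the sham + WT libraries and 414 and 23.1 CPM in the MCAO/R + WT libraries, so that replicate 1 of the latter stood far above the other. Their log2 difference of 4.48 ± 0.82 (adjusted p = 0.0142, or 5.41 without MCAO/R + WT replicate 2) was lost without sham + WT replicate 2 (adjusted p = 0.0761), sham + WT replicate 3 (0.0639) and MCAO/R + WT replicate 1 (0.233, log2 difference 1.26), and also when clustered without haemoglobin transcripts, at 3.03 and with only the libraries compared. In oligodendrocyte-like cells Hmox1 was at 8.18, 7.91 and 13.03 CPM in the sham + Lrg1-/- libraries and 20.99, 43.5 and 164 CPM in the MCAO/R + Lrg1-/- libraries, without overlap. This log2 difference was 3.12 ± 0.71 (adjusted p = 0.011, or 1.87 without MCAO/R + Lrg1-/- replicate 5), lost without sham + Lrg1-/- replicate 1 (adjusted p = 0.0734) and sham + Lrg1-/- replicate 2 (0.0546).

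Between genotypes, Hmox1 was called in 1 of 14 cell types after MCAO/R, in oligodendrocyte-like cells. In sham mice it was called in 0 of 12 by edgeR, with 0 at an unadjusted p under 0.05 and 0 called by DESeq2. The oligodendrocyte-like cells of MCAO/R + WT libraries held 29.6 and 13.96 CPM, which overlapped the MCAO/R + Lrg1-/- libraries. The further Hmox1 calls followed surgery. In WT the log2 difference was 1.92 (adjusted p = 0.017, lost without sham + WT replicate 1 or 2 and MCAO/R + WT replicate 1 (log2 difference 1.21), adjusted p = 0.0649 to 0.244, and also with DESeq2) in pericyte-like cells and, in red blood cell-like cells, 4.05 (adjusted p = 0.00939, lost without sham + WT replicate 2 and MCAO/R + WT replicate 1 (log2 difference 2.44), adjusted p = 0.0607 to 0.601), or 4.76 without MCAO/R + WT replicate 2. In Lrg1-/- mice it was 2.15 (adjusted p = 0.0253, lost without sham + Lrg1-/- replicate 1, 2 or 5 and MCAO/R + Lrg1-/- replicate 5 (log2 difference 1.08), adjusted p = 0.0622 to 0.16) in red blood cell-like cells and 1.60 (adjusted p = 0.0489, lost without sham + Lrg1-/- replicate 1, 2 or 5, MCAO/R + Lrg1-/- replicate 2 or 5, sham + WT replicate 1 or 3 and MCAO/R + WT replicate 1 or 2, adjusted p = 0.0556 to 0.261, and also at 10% mitochondrial UMIs, with haemoglobin transcripts left out, when clustered without haemoglobin transcripts and with only the libraries compared) in choroid plexus epithelial-like cells. For the genotypes, the oligodendrocyte-like log2 difference of 1.88 ± 0.62 (adjusted p = 0.0348, or 2.498 without MCAO/R + WT replicate 1) was lost without sham + Lrg1-/- replicate 1 (adjusted p = 0.0512), sham + Lrg1-/- replicate 2 (0.0518), MCAO/R + Lrg1-/- replicate 5 (0.195, log2 difference 0.63) and MCAO/R + WT replicate 2 (0.232), and also with DESeq2, with doublets kept and with only the libraries compared. In microglial-like cells the genotype difference after MCAO/R was 0.77 ± 0.54 (adjusted p = 0.3), and was not called.

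**Figure D3:**
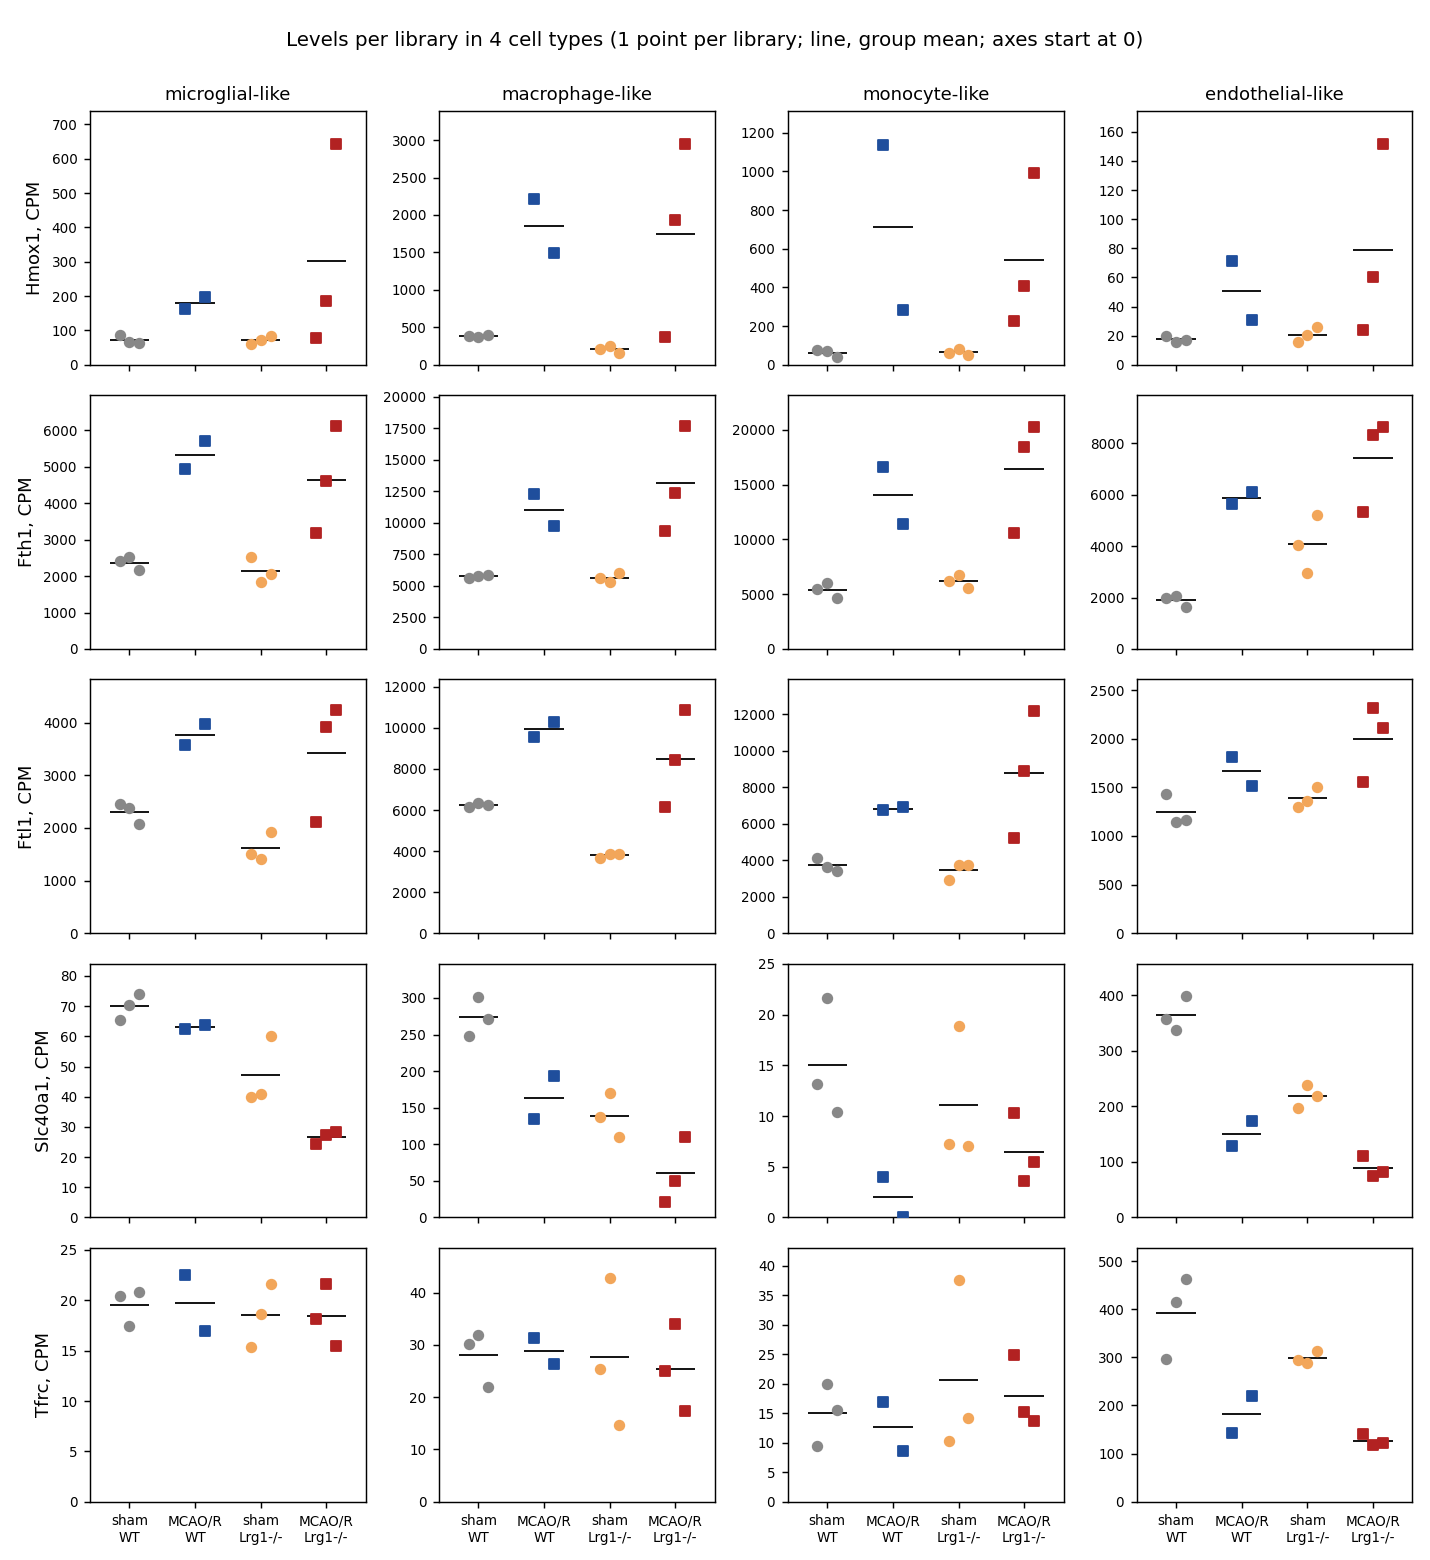
Levels of Hmox1, Fth1, Ftl1, Slc40a1 and Tfrc (CPM, axes from 0) in microglial-, macrophage-, monocyte- and endothelial-like cells, with 1 point per library. In macrophage-, microglial- and monocyte-like cells the Fth1 points of all 5 MCAO/R libraries lie above those of all 6 sham libraries, and in endothelial-like cells the Slc40a1 and Tfrc points lie below them.

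Blvra and Blvrb, the biliverdin reductases, were not called after MCAO/R in WT mice. For Blvra, edgeR called 0 of 14 cell types, with 1 at an unadjusted p under 0.05 and 0 called by DESeq2. For Blvrb, edgeR called 0 of 14, with 1 at an unadjusted p under 0.05 and 1 called by DESeq2.

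In microglial-like cells Blvra was at 26.3, 25.7 and 27.5 CPM in the sham + WT libraries and 26.97 and 26.6 CPM in the MCAO/R + WT libraries. With Lrg1 deleted, the values were 18.9, 16.5 and 20.03 CPM after sham surgery and 28.3, 28.3 and 32.1 CPM after MCAO/R. The sham + Lrg1-/- libraries were below all others. The sham genotype difference was -0.53 ± 0.12 on the log2 scale (adjusted p = 0.00353), lost when thinned, at -0.27. The Lrg1-/- response to MCAO/R was 0.70 ± 0.12 (adjusted p = 0.000624), lost when thinned, at 0.41. In endothelial-like cells Blvra was higher in MCAO/R + Lrg1-/- (36.9, 30.4 and 32.2 CPM) than in MCAO/R + WT libraries (22.4 and 21.2 CPM), a log2 difference of 0.60 ± 0.12 (adjusted p = 0.00349), lost when thinned, at 0.17.

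The response to MCAO/R of microglial Blvra in Lrg1-/- minus that in WT was 0.68 (adjusted p = 0.0162, lost without MCAO/R + WT replicate 2, adjusted p = 0.056, and also when thinned, at 0.29). After MCAO/R in Lrg1-/- mice, Blvra was also called in endothelial-like cells at 0.40 (adjusted p = 0.0198, lost without sham + Lrg1-/- replicate 2 and MCAO/R + Lrg1-/- replicate 1, adjusted p = 0.0473 to 0.0985, and also without the filter on low counts, when clustered without haemoglobin transcripts, when thinned, at 0.20 and with only the libraries compared). In oligodendrocyte-like cells it was called at 0.42 (adjusted p = 0.0379, lost without sham + Lrg1-/- replicate 1, 2 or 5 and MCAO/R + Lrg1-/- replicate 1 or 2, adjusted p = 0.0527 to 0.11, and also without the filter on low counts, at 10% mitochondrial UMIs, without cells over 5% haemoglobin, when thinned, at 0.92 and with only the libraries compared). The genotypes differed after MCAO/R in choroid plexus epithelial-like cells by 1.08 (adjusted p = 0.0122, lost without MCAO/R + WT replicate 1 or 2, adjusted p = 0.0787 to 0.081, and also when thinned and with only the libraries compared).

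Blvrb, which also reduces flavins and is abundant in red blood cells, was higher in Lrg1-/- oligodendrocyte-like cells. It was at 10.4, 9.19 and 7.84 CPM in the sham + WT libraries and 7.61 and 6.19 CPM in the MCAO/R + WT libraries. The sham + Lrg1-/- libraries held 15.3, 15.2 and 15.8 CPM, and the MCAO/R + Lrg1-/- libraries 23.2, 35.1 and 32.1 CPM. The 4 groups did not overlap. After MCAO/R the genotypes differed by 2.15 ± 0.20 on the log2 scale, a 4.45-fold difference (adjusted p = 4.14e-05), which was called under all alternatives. Within clusters 3.0, 3.1 and 3.2 it was at 5.59 to 7.12, 9.71 to 11.3 and 6.33 to 8.49 CPM in the MCAO/R + WT libraries and 11.96 to 17.4, 40.3 to 50.4 and 22.99 to 23.5 CPM in the MCAO/R + Lrg1-/- libraries, without overlap in any of them.

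The level of Blvrb was set beside haemoglobin and Ttr. If the haemoglobin UMIs of oligodendrocyte-like cells had brought Blvrb with them at the ratio seen in red blood cell-like cells of the same library, they would account for 21.9 to 36.2% of its UMIs in the MCAO/R + Lrg1-/- libraries. The choroid plexus transcript Ttr, at the ratio of choroid plexus epithelial-like cells, would account for 6.88 to 32.97%. Blvrb was also called higher in MCAO/R + Lrg1-/- than in MCAO/R + WT libraries in choroid plexus epithelial-like cells (1.32 on the log2 scale), ciliated ependymal-like cells (1.27), endothelial-like cells (0.49) and vascular smooth muscle-like cells (1.32). In these the share at the red blood cell-like ratio was 9.91 to 19.6%, 7.20 to 11.2%, 6.70 to 13.5% and 5.88 to 18.5% in that order. Red blood cell-like cells held 16.6 to 61.9% haemoglobin in the MCAO/R + Lrg1-/- libraries, so their ratio can take in RNA of other cells. Shares at this ratio can therefore be too high, and the part of red blood cell RNA was not tested.

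The surgery response of oligodendrocyte Blvrb was 0.99 (adjusted p = 0.00564, kept without any 1 library, but lost when thinned) in Lrg1-/- mice. The response in Lrg1-/- minus that in WT was 1.41 (adjusted p = 0.0213, lost without sham + Lrg1-/- replicate 1 or 2 and MCAO/R + WT replicate 2, adjusted p = 0.0602 to 0.12, and also when thinned). In sham mice the genotypes differed by 0.75 (adjusted p = 0.0387, lost without sham + Lrg1-/- replicate 1, 2 or 5 and sham + WT replicate 1, 2 or 3, adjusted p = 0.0514 to 0.148, and also at 10% mitochondrial UMIs, when clustered without haemoglobin transcripts, at 0.49 and when thinned, at 0.32) in oligodendrocyte-like cells. The difference was 0.87 (adjusted p = 0.0199, lost without sham + Lrg1-/- replicate 5 and sham + WT replicate 2 or 3, adjusted p = 0.0536 to 0.103, and also at 10% mitochondrial UMIs and when thinned, at 0.55) in choroid plexus epithelial-like cells. It was 1.03 (adjusted p = 0.0238, lost without sham + Lrg1-/- replicate 2 or 5 and sham + WT replicate 1, 2 or 3, adjusted p = 0.0512 to 0.0947, and also when clustered without haemoglobin transcripts, at 0.29 and when thinned) in vascular smooth muscle-like cells. Within clusters 5.0 and 5.2 of the latter, Blvrb of the sham genotypes overlapped.

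The other 4 calls of Blvrb between genotypes after MCAO/R were each lost without at least 1 library. That in choroid plexus epithelial-like cells was lost without MCAO/R + WT replicate 2 (adjusted p = 0.0998), and also when thinned. In ciliated ependymal-like cells it was lost without MCAO/R + WT replicate 1 (adjusted p = 0.0701) and MCAO/R + WT replicate 2 (0.263), and also with only the libraries compared, and in endothelial-like cells without MCAO/R + WT replicate 1 (adjusted p = 0.0721) and MCAO/R + WT replicate 2 (0.0504), and also when thinned and with only the libraries compared. In vascular smooth muscle-like cells it was lost without sham + Lrg1-/- replicate 2 (adjusted p = 0.0725), MCAO/R + Lrg1-/- replicate 1 (0.052), sham + WT replicate 1 (0.0601), sham + WT replicate 2 (0.0711), sham + WT replicate 3 (0.0634), MCAO/R + WT replicate 1 (0.194) and MCAO/R + WT replicate 2 (0.28), and also when thinned and with only the libraries compared.

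Fth1, the ferritin heavy chain that oxidises iron for storage, rose after MCAO/R in 6 of 14 cell types in WT and in 4 of 13 in Lrg1-/- mice and was called lower in 0. In endothelial-like cells it was at 1978, 2072 and 1627 CPM in the sham + WT libraries and 5640.1 and 6114 CPM in the MCAO/R + WT libraries. Values in the knockouts were 4048, 2964 and 5220.2 CPM (sham) and 5340.0, 8322 and 8623 CPM (MCAO/R). The WT groups lay far apart, and the sham + Lrg1-/- libraries lay between them.

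The endothelial response of Fth1 in WT was 1.63 ± 0.24 on the log2 scale, or 3.11-fold (adjusted p = 0.000587), called under all alternatives. For Lrg1-/- mice it was 0.87 ± 0.22 (adjusted p = 0.0158), lost without sham + Lrg1-/- replicate 1 (adjusted p = 0.0537), sham + Lrg1-/- replicate 2 (0.071) and MCAO/R + Lrg1-/- replicate 2 (0.0594), and also with only the libraries compared. Within cluster 2.0 the WT libraries held 1412 to 1678 CPM after sham surgery and 3114 to 4021 CPM after MCAO/R, and within cluster 2.2 2155 to 2911 and 6923 to 9132 CPM, but within cluster 2.1 they overlapped (3239 to 5574 and 5015 to 5768 CPM). The sham genotypes differed by 1.11 ± 0.22 (adjusted p = 0.00573), lost with the replicate number as a block (adjusted p = 0.0911). In the sham + Lrg1-/- libraries, haemoglobin at the ratio of red blood cell-like cells would account for 4.05 to 8.69% of endothelial Fth1, with the limit given for Blvrb.

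In microglial-like cells Fth1 was at 2426, 2519 and 2165 CPM in the sham + WT libraries and 4924 and 5692 CPM in the MCAO/R + WT libraries. In knockout libraries the values were 2528, 1849 and 2059 CPM after sham surgery and 3181, 4619.6 and 6113 CPM after MCAO/R. Every MCAO/R library was above every sham library. The log2 difference was 1.16 ± 0.21 in WT (adjusted p = 0.00115) and 1.11 ± 0.19 in Lrg1-/- mice (adjusted p = 0.000706), and both were called under all alternatives.

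Macrophage- and monocyte-like cells showed the same direction. Fth1 was at 5285 to 6052 CPM in the 6 sham libraries and 9374 to 17688 CPM in the 5 MCAO/R libraries of macrophage-like cells, and at 4695 to 6792 and 10614 to 20281 CPM in those of monocyte-like cells, with no overlap in either. In Lrg1-/- mice the log2 difference was 1.22 ± 0.19 (adjusted p = 0.00159) and 1.41 ± 0.22 (adjusted p = 0.00184), called under all alternatives. In WT mice it was 0.93 ± 0.21 in macrophage-like cells (adjusted p = 0.0114), lost without sham + WT replicate 1 (adjusted p = 0.0504) and MCAO/R + WT replicate 1 (0.137), and 1.37 ± 0.24 in monocyte-like cells (adjusted p = 0.00654), lost without MCAO/R + WT replicate 1 (adjusted p = 0.108).

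Pericyte-like cells, which wrap capillaries, held 1504, 1405 and 1262 CPM of Fth1 in the sham + WT libraries and 2452 and 2069.6 CPM in the MCAO/R + WT libraries, without overlap. The log2 difference was 0.70 ± 0.13 (adjusted p = 0.000926). In oligodendrocyte-like cells, where Fth1 was highest in both sham groups but not in the MCAO/R groups, it was at 13407 to 14940.1 CPM in the 6 sham libraries, 14586 and 13186 CPM in the MCAO/R + WT libraries and 13998, 18260.5 and 18788 CPM in the MCAO/R + Lrg1-/- libraries. No comparison of Fth1 was called in them. The remaining WT response of Fth1 was in red blood cell-like cells, at 1.72 (adjusted p = 0.0395, lost without sham + Lrg1-/- replicate 1, 2 or 5, MCAO/R + Lrg1-/- replicate 5, sham + WT replicate 2 and MCAO/R + WT replicate 1, adjusted p = 0.0537 to 0.515, and also with doublets kept).

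Between genotypes, Fth1 was called higher in 3 of 14 cell types after MCAO/R and in 4 of 13 in sham mice. Ciliated ependymal-like cells differed by 1.05 (adjusted p = 0.0386, lost without sham + Lrg1-/- replicate 2, MCAO/R + Lrg1-/- replicate 1, 2 or 5, sham + WT replicate 1, 2 or 3 and MCAO/R + WT replicate 1 or 2, adjusted p = 0.0503 to 0.324, and also with doublets kept, when thinned and with only the libraries compared) after MCAO/R and 0.85 (adjusted p = 0.0462, lost without sham + Lrg1-/- replicate 2 or 5, MCAO/R + Lrg1-/- replicate 2 or 5, sham + WT replicate 1, 2 or 3 and MCAO/R + WT replicate 1 or 2, adjusted p = 0.0506 to 0.14, and also without the filter on low counts, with doublets kept, without cells over 5% haemoglobin, at 0.53, when thinned and with only the libraries compared) in sham mice. Neuron-like cells differed by 1.55 (adjusted p = 0.034, lost without MCAO/R + Lrg1-/- replicate 5, sham + WT replicate 2 and MCAO/R + WT replicate 1 or 2, adjusted p = 0.0507 to 0.226) after MCAO/R, and vascular smooth muscle-like cells by 0.63 (adjusted p = 0.033, lost without sham + Lrg1-/- replicate 2 or 5, sham + WT replicate 1, 2 or 3 and MCAO/R + WT replicate 1 or 2, adjusted p = 0.0525 to 0.118, and also without the filter on low counts, with doublets kept and when clustered without haemoglobin transcripts, at 0.32) in sham mice.

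Ftl1, the ferritin light chain that helps form the iron core, was called higher after MCAO/R in 2 of 14 cell types in WT and in 8 of 13 in Lrg1-/- mice. Macrophage-like cells held 6151, 6363 and 6252 CPM in the sham + WT libraries and 9561 and 10297 CPM in the MCAO/R + WT libraries. Lrg1-/- libraries held 3652, 3870.1 and 3867 CPM after sham surgery and 6127, 8415 and 10875 CPM after MCAO/R. The sham + Lrg1-/- libraries were the lowest of all. The Lrg1-/- response was 1.16 ± 0.17 on the log2 scale (adjusted p = 0.00114). The sham genotype difference of -0.72 ± 0.17 (adjusted p = 0.0294) was lost without any 1 of the 6 sham libraries (adjusted p = 0.0742 to 0.112), and when thinned.

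Microglial-like cells held 2454, 2370.0 and 2065 CPM of Ftl1 in the sham + WT libraries and 3567 and 3973 CPM in the MCAO/R + WT libraries. With Lrg1 deleted, the values were 1512, 1419 and 1931 CPM after sham surgery and 2117, 3913 and 4239 CPM after MCAO/R. Each MCAO/R group lay above its own sham group. The Lrg1-/- response was 1.08 ± 0.21 there (adjusted p = 0.00136), 1.34 ± 0.24 in monocyte-like cells (adjusted p = 0.00358) and 0.98 ± 0.17 in oligodendrocyte-like cells (adjusted p = 0.00226). These Lrg1-/- responses, and that of macrophage-like cells, were called under all alternatives.

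Further Lrg1-/- responses of Ftl1 were 1.54 (adjusted p = 0.0399, lost without sham + Lrg1-/- replicate 1 or 2, MCAO/R + Lrg1-/- replicate 1, 2 or 5 and sham + WT replicate 1, 2 or 3, adjusted p = 0.0541 to 0.144, and also when clustered without haemoglobin transcripts and with only the libraries compared) in astrocyte-like and 1.36 (adjusted p = 0.0295, lost without sham + Lrg1-/- replicate 1 or 2, MCAO/R + Lrg1-/- replicate 5 and sham + WT replicate 2, adjusted p = 0.0597 to 0.146, and also with only the libraries compared) in neuron-like cells. Fibroblast-like cells responded by 1.36 (adjusted p = 0.0261, lost without sham + Lrg1-/- replicate 1, 2 or 5 and MCAO/R + Lrg1-/- replicate 5, adjusted p = 0.0555 to 0.118, and also without cells over 5% haemoglobin and when thinned). Endothelial-like cells responded by 0.53 (adjusted p = 0.0309, lost without sham + Lrg1-/- replicate 1 or 2 and MCAO/R + Lrg1-/- replicate 2 or 5, adjusted p = 0.0692 to 0.116, and also when clustered without haemoglobin transcripts, at 0.29 and with only the libraries compared). Genotype differences after MCAO/R, outside the choroid plexus, were 0.70 (adjusted p = 0.0139, lost without MCAO/R + WT replicate 1 or 2, adjusted p = 0.0557 to 0.0883, and also with only the libraries compared) in oligodendrocyte-like and 1.73 (adjusted p = 0.023, lost without MCAO/R + WT replicate 1 or 2, adjusted p = 0.101 to 0.295, and also when thinned and with only the libraries compared) in ciliated ependymal-like cells. Astrocyte-like cells differed by 1.47 (adjusted p = 0.0496, lost without sham + Lrg1-/- replicate 1, MCAO/R + Lrg1-/- replicate 1, 2 or 5, sham + WT replicate 1, 2 or 3 and MCAO/R + WT replicate 1 or 2, adjusted p = 0.0514 to 0.263, and also at 10% mitochondrial UMIs, with doublets kept and with only the libraries compared). Neural progenitor-like cells differed by 0.58 (adjusted p = 0.0292, lost without MCAO/R + Lrg1-/- replicate 2, sham + WT replicate 3 and MCAO/R + WT replicate 1 or 2, adjusted p = 0.0586 to 0.171, and also when thinned and with only the libraries compared). In sham mice vascular smooth muscle-like cells differed by 1.49 (adjusted p = 0.0279, lost without sham + Lrg1-/- replicate 2 or 5 and sham + WT replicate 1, 2 or 3, adjusted p = 0.051 to 0.108, and also when clustered without haemoglobin transcripts, at 0.38). Within clusters 5.0 and 5.2 of these cells the sham genotypes overlapped, at 614 to 883 and 850.3 to 871 CPM in 5.0 and 442 to 527 and 453 to 531 CPM in 5.2 (WT, then Lrg1-/-).

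Ftl1 had 2 calls in WT. The log2 difference was 0.67 ± 0.19 in macrophage-like cells (adjusted p = 0.041), lost without sham + Lrg1-/- replicate 1 (adjusted p = 0.0643), sham + Lrg1-/- replicate 2 (0.0638), sham + WT replicate 1 (0.121), sham + WT replicate 2 (0.111), sham + WT replicate 3 (0.123), MCAO/R + WT replicate 1 (0.131) and MCAO/R + WT replicate 2 (0.154), and also with haemoglobin transcripts left out and without cells over 5% haemoglobin. In microglial-like cells it was 0.72 ± 0.23 (adjusted p = 0.035), lost without sham + WT replicate 1 (adjusted p = 0.0608), sham + WT replicate 2 (0.0792), sham + WT replicate 3 (0.118), MCAO/R + WT replicate 1 (0.0829) and MCAO/R + WT replicate 2 (0.165). The difference between the responses of the genotypes was called for Ftl1 in 0 of 12 cell types by edgeR, with 2 at an unadjusted p under 0.05 and 0 called by DESeq2.

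In choroid plexus epithelial-like cells, which make cerebrospinal fluid, ferritin was called between genotypes and not between surgery groups. All genes of these cells went the same way, with 23.1% called between genotypes after MCAO/R and 23.5% in sham mice. For surgery, 0.989% of all genes were called in WT and 1.34% in Lrg1-/- mice. Ftl1 of these cells was at 1100.4, 957 and 994 CPM in the sham + WT libraries and 1091 and 1074 CPM in the MCAO/R + WT libraries. The sham + Lrg1-/- libraries held 1471, 1711 and 2353 CPM, and the MCAO/R + Lrg1-/- libraries 3563, 2382 and 2358 CPM. Every Lrg1-/- library was above every WT library. For Ftl1 the genotype difference after MCAO/R was 1.35 ± 0.24 on the log2 scale (adjusted p = 0.00356), called under all alternatives, and that of Fth1 was 1.21 ± 0.21 (adjusted p = 0.00282), lost when thinned. In sham mice Ftl1 differed by 0.86 ± 0.21 (adjusted p = 0.0113), lost without sham + WT replicate 2 (adjusted p = 0.0593), and also at 10% mitochondrial UMIs and when thinned, at 0.51. Within cluster 4.0 sham Ftl1 was at 1315 to 1851 CPM in WT and 2017 to 2595 CPM in Lrg1-/- libraries, without overlap, while within cluster 4.1 it was lower in Lrg1-/- (1122 to 1274 CPM against 1293 to 1468 CPM). Sham Fth1 differed by 0.87 ± 0.18 (adjusted p = 0.00522), lost at 10% mitochondrial UMIs, at 0.55 and when thinned, at 0.56.

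In these cells of MCAO/R + Lrg1-/- libraries, haemoglobin at the red blood cell-like ratio would account for 8.48 to 34.3% of Ftl1 and 3.63 to 25.3% of Fth1. The limit given for Blvrb holds here too. A processed pseudogene, Ftl1-ps1, took UMIs equal to 0.359% of those of Ftl1.

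Slc40a1, ferroportin, fell after MCAO/R in endothelial-like cells of both genotypes. It was at 358, 336 and 399 CPM in the sham + WT libraries and 129 and 173 CPM in the MCAO/R + WT libraries. Values in the knockouts were 197, 239 and 219 CPM (sham) and 111, 74.3 and 81.2 CPM (MCAO/R). The 4 groups did not overlap, in the order sham + WT, sham + Lrg1-/-, MCAO/R + WT and MCAO/R + Lrg1-/- from high to low. After MCAO/R it fell by 1.27 ± 0.18 on the log2 scale in WT (adjusted p = 0.000441) and by 1.30 ± 0.16 in Lrg1-/- mice (adjusted p = 0.000418), and both were called under all alternatives. Within cluster 2.0 the MCAO/R libraries of either genotype were below the sham libraries (84.4 to 145 against 365 to 416 CPM in WT, 91.6 to 146 against 213 to 259.9 CPM in Lrg1-/-), as they were within cluster 2.1. Within cluster 2.2 the WT groups overlapped (55.02 to 107 against 56.5 to 158 CPM) and the Lrg1-/- groups did not. The difference between these responses was -0.03 ± 0.23 (adjusted p = 0.973).

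Between genotypes, endothelial Slc40a1 was lower in Lrg1-/- by a log2 difference of -0.74 ± 0.16 in sham mice (adjusted p = 0.00754). That call was lost with the replicate number as a block (adjusted p = 0.108). After MCAO/R the difference was -0.77 ± 0.17 (adjusted p = 0.00733), lost without MCAO/R + WT replicate 2 (adjusted p = 0.0828), and also with only the libraries compared. After MCAO/R the libraries of the genotypes lay apart within no cluster compared. Cluster 2.2 held 18.8 to 30.3% of endothelial-like cells in the MCAO/R + WT libraries and 47.5 to 71.0% in MCAO/R + Lrg1-/-. The genotype difference can therefore also be one between clusters. Haemoglobin made up 1.68 to 3.74% of the UMIs of endothelial-like cells in the Lrg1-/- libraries. With haemoglobin transcripts left out of the counts, all 4 endothelial calls of Slc40a1 were kept. This setting takes out no more than that share of the UMIs, so it could hardly have changed the calls. It leaves other free RNA in the counts, and the part of that RNA was not tested.

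In microglial-like cells Slc40a1 was at 65.4, 70.3 and 73.95 CPM in the sham + WT libraries and 62.5 and 63.6 CPM in the MCAO/R + WT libraries. In knockout libraries the values were 39.95, 41.1 and 60.1 CPM after sham surgery and 24.5, 27.4 and 28.4 CPM after MCAO/R. The MCAO/R + Lrg1-/- libraries lay below all others. The genotype difference after MCAO/R was -1.22 ± 0.15 on the log2 scale, or 2.33-fold lower (adjusted p = 4.53e-05), and the Lrg1-/- response -0.76 ± 0.14 (adjusted p = 0.00112), both called under all alternatives. Within cluster 1.1 alone, which held most of the cells after MCAO/R, Slc40a1 was at 53.4 and 55.03 CPM in the MCAO/R + WT libraries and 27.6, 28.6 and 28.9 CPM in the MCAO/R + Lrg1-/- libraries, against 42.8 to 52.1 CPM in sham + Lrg1-/-. In sham mice the genotypes differed by -0.60 ± 0.14 (adjusted p = 0.00413), lost when thinned. The difference between the responses to surgery was -0.62 ± 0.20 and was not called (adjusted p = 0.0555).

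In macrophage-like cells Slc40a1 was at 248, 301 and 271 CPM in the sham + WT libraries and 134 and 193 CPM in the MCAO/R + WT libraries. Lrg1-/- libraries held 137, 169.7 and 110.2 CPM after sham surgery and 21.4, 50.2 and 109 CPM after MCAO/R. The genotype difference after MCAO/R, -1.46 ± 0.38 (adjusted p = 0.0134), was lost without MCAO/R + Lrg1-/- replicate 2 (adjusted p = 0.055) and MCAO/R + WT replicate 2 (0.102), and also with only the libraries compared. Within cluster 6.1 the genotypes overlapped, at 130.4 and 190.4 CPM in the MCAO/R + WT libraries and 49.7 and 152 CPM in MCAO/R + Lrg1-/- replicates 2 and 5. Within cluster 0.0.3 the only MCAO/R + WT library with enough cells was at 80.03 CPM, and the MCAO/R + Lrg1-/- libraries were at 20.9, 30.8 and 39.5 CPM. The macrophage response in Lrg1-/- mice was -1.26 (adjusted p = 0.0399, lost without sham + Lrg1-/- replicate 1 or 2, MCAO/R + Lrg1-/- replicate 1 or 2 and sham + WT replicate 1, 2 or 3, adjusted p = 0.0533 to 0.142, and also without cells over 5% haemoglobin, when thinned and with only the libraries compared). Choroid plexus epithelial-like cells of Lrg1-/- mice responded by -1.72 (adjusted p = 0.0461, lost without sham + Lrg1-/- replicate 2 or 5, MCAO/R + Lrg1-/- replicate 2 or 5, sham + WT replicate 2 and MCAO/R + WT replicate 1 or 2, adjusted p = 0.0674 to 0.211, and also without cells over 5% haemoglobin, when clustered without haemoglobin transcripts and with only the libraries compared), and oligodendrocyte-like cells of WT mice by -1.57 (adjusted p = 0.00888, lost without MCAO/R + WT replicate 1 or 2, adjusted p = 0.0528 to 0.0536). In red blood cell-like cells of Lrg1-/- libraries, Slc40a1 was at 25.9, 41.1 and 35.3 CPM after sham surgery and 10.9, 10.02 and 9.97 CPM after MCAO/R, a log2 difference of -1.71 ± 0.28 (adjusted p = 0.00152).

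Tfrc, the transferrin receptor through which cells take up iron, was called in endothelial-like cells and in no other cell type tested. It was at 297, 416 and 462 CPM in the sham + WT libraries and 143 and 219.5 CPM in the MCAO/R + WT libraries. With Lrg1 deleted, the values were 295, 289 and 314 CPM after sham surgery and 139.9, 118 and 123 CPM after MCAO/R. Every MCAO/R library was below every sham library. It fell by 1.11 ± 0.20 on the log2 scale in WT (adjusted p = 0.00217) and by 1.24 ± 0.18 in Lrg1-/- mice (adjusted p = 0.000824), called under all alternatives. Between genotypes Tfrc was called in 0 of 13 cell types by edgeR after MCAO/R, with 1 at an unadjusted p under 0.05 and 1 called by DESeq2, and in sham mice in 0 of 13, with 1 and 0. The differences in endothelial-like cells were -0.52 ± 0.19 after MCAO/R (edgeR, adjusted p = 0.0659) and -0.39 ± 0.17 in sham mice (adjusted p = 0.152). Within cluster 2.0 Tfrc was at 325 to 496 CPM in sham + WT and 152 to 159.7 CPM in MCAO/R + WT libraries, and at 317 to 366 and 267 to 283 CPM in those of Lrg1-/-, without overlap in either. Within clusters 2.1 and 2.2 the WT groups overlapped (183 to 256 and 156 to 228 CPM in 2.1) and the Lrg1-/- groups did not (204 to 294 and 187 to 194 CPM in 2.1). In microglial-like cells Tfrc was at 15.3 to 22.6 CPM in the 11 libraries.

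Trf, the transferrin that carries iron, was highest in oligodendrocyte-like cells. These held 3938, 4119 and 4219 CPM in the sham + WT libraries and 2365 and 2102 CPM in the MCAO/R + WT libraries. The sham + Lrg1-/- libraries held 3363, 3729 and 3604 CPM, and the MCAO/R + Lrg1-/- libraries 7300.4, 6736 and 3582 CPM. The MCAO/R + WT libraries were the lowest and MCAO/R + Lrg1-/- replicates 1 and 2 the highest, while replicate 5 lay within the range of the sham + Lrg1-/- group. The genotype difference after MCAO/R was 1.39 ± 0.24 on the log2 scale, or 2.63-fold (adjusted p = 0.00134), called under all alternatives. Within each of clusters 3.0, 3.1 and 3.2 the MCAO/R + Lrg1-/- libraries were above the MCAO/R + WT libraries, at 3848 to 9018 against 2078 to 2514, 2712 to 5858 against 1899 to 2077 and 4695 to 8065 against 2495 to 2831 CPM.

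The surgery responses of Trf in oligodendrocyte-like cells had opposite signs. In WT the log2 difference was -0.87 ± 0.24 (adjusted p = 0.0186), lost without MCAO/R + WT replicate 1 (adjusted p = 0.0629) and MCAO/R + WT replicate 2 (0.128). That in Lrg1-/- mice was 0.72 ± 0.21 (adjusted p = 0.0335), lost without sham + Lrg1-/- replicate 1 (adjusted p = 0.121), sham + Lrg1-/- replicate 2 (0.0853), sham + Lrg1-/- replicate 5 (0.0785), MCAO/R + Lrg1-/- replicate 1 (0.0873) and MCAO/R + Lrg1-/- replicate 2 (0.108), and also with only the libraries compared. The difference between the responses, 1.59 ± 0.32, was called (adjusted p = 0.0215), and was lost without sham + Lrg1-/- replicate 1 (adjusted p = 0.0715), sham + Lrg1-/- replicate 2 (0.0598), sham + Lrg1-/- replicate 5 (0.0501) and MCAO/R + WT replicate 2 (0.114).

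Trf was called higher in MCAO/R + Lrg1-/- than in MCAO/R + WT libraries in 7 of 14 cell types. In endothelial-like cells it was at 62.3 and 91.5 CPM in the MCAO/R + WT libraries and 176, 169 and 313 CPM in the MCAO/R + Lrg1-/- libraries, without overlap. The log2 difference was 1.51 ± 0.31 (adjusted p = 0.0045), called under all alternatives.

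The log2 differences of Trf between genotypes after MCAO/R were 2.65 in astrocyte-like, 2.66 in neuron-like, 2.51 in ciliated ependymal-like and 2.85 in vascular smooth muscle-like cells, each called. The astrocyte-like call was lost without MCAO/R + Lrg1-/- replicate 1 (adjusted p = 0.0539), MCAO/R + Lrg1-/- replicate 5 (0.074) and MCAO/R + WT replicate 2 (0.161), and also with doublets kept, at 1.72 and with only the libraries compared. The neuron-like call was lost without MCAO/R + WT replicate 1 (adjusted p = 0.136) and MCAO/R + WT replicate 2 (0.0825). The ciliated ependymal-like call was lost without sham + Lrg1-/- replicate 2 (adjusted p = 0.0586), MCAO/R + Lrg1-/- replicate 1 (0.0876), MCAO/R + Lrg1-/- replicate 5 (0.0771), sham + WT replicate 2 (0.0601), MCAO/R + WT replicate 1 (0.169) and MCAO/R + WT replicate 2 (0.315), and also with doublets kept, when thinned and with only the libraries compared. The smooth muscle-like call was lost without sham + Lrg1-/- replicate 2 (adjusted p = 0.0725), MCAO/R + Lrg1-/- replicate 1 (0.078), sham + WT replicate 1 (0.058), sham + WT replicate 2 (0.0714), sham + WT replicate 3 (0.0634), MCAO/R + WT replicate 1 (0.22) and MCAO/R + WT replicate 2 (0.28), and also with doublets kept, at 1.496, when thinned and with only the libraries compared.

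Macrophage-like cells held 1009.5, 1002 and 1051 CPM of Trf in the sham + WT libraries and 477 and 478 CPM in the MCAO/R + WT libraries. Values in the knockouts were 746, 729 and 925 CPM (sham) and 851, 745 and 685 CPM (MCAO/R). The MCAO/R + WT libraries were the lowest. This WT response of -1.10 ± 0.17 on the log2 scale (adjusted p = 0.00121) was called under all alternatives. The genotype difference after MCAO/R, 0.67 ± 0.17 (adjusted p = 0.0122), was lost without MCAO/R + WT replicate 2 (adjusted p = 0.0892), and also without the filter on low counts, when thinned and with only the libraries compared. Within cluster 6.1 the genotypes did not overlap (452 and 468 CPM in WT and 688 and 702 CPM in Lrg1-/-), but within cluster 0.0.3 they did.

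Trf also responded in Lrg1-/- mice in endothelial-like cells at 1.41 (adjusted p = 0.00409, kept without any 1 library, but lost when clustered without haemoglobin transcripts, at 0.91), in monocyte-like cells at 0.98 (adjusted p = 0.0256, lost without sham + Lrg1-/- replicate 1, 2 or 5 and MCAO/R + Lrg1-/- replicate 1 (log2 difference 0.60), adjusted p = 0.0532 to 0.0772, and also with only the libraries compared) and in microglial-like cells at 0.53 (adjusted p = 0.0315, lost without sham + Lrg1-/- replicate 1 or 2 and MCAO/R + Lrg1-/- replicate 5 (log2 difference 0.31), adjusted p = 0.0789 to 0.126, and also with only the libraries compared), where the groups overlapped. In sham mice the microglial-like genotype difference was -0.63 (adjusted p = 0.0134, lost without sham + Lrg1-/- replicate 1 or 2, adjusted p = 0.0609 to 0.072).

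Cd163, the haemoglobin-haptoglobin receptor, was highest in macrophage-like cells. In the sham + WT libraries its mean there was 185 ± 9.40 CPM (SD, n = 3; not scaled between libraries), against 8.37 ± 5.47 CPM in monocyte-like cells, the next in order, and the ranges did not overlap. Macrophage-like cells held 185, 199 and 184 CPM in the sham + WT libraries and 571 and 376 CPM in the MCAO/R + WT libraries on the scaled measure. In knockout libraries the values were 257, 307 and 129 CPM after sham surgery and 149.8, 368 and 233 CPM after MCAO/R. The Lrg1-/- groups overlapped and the WT groups did not. The WT response was 1.32 ± 0.33 on the log2 scale (adjusted p = 0.0211), lost without sham + WT replicate 1 (adjusted p = 0.0796), sham + WT replicate 2 (0.0666), sham + WT replicate 3 (0.0802) and MCAO/R + WT replicate 1 (0.238), and also when thinned. Cd163 passed the filter on low counts in 7 cell types, and edgeR called its genotype difference after MCAO/R in 0 of 7, with 2 at an unadjusted p under 0.05 and 1 called by DESeq2.

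Slc11a1, which moves iron and manganese across the phagosome membrane of macrophages and microglia, responded to MCAO/R differently in the genotypes in microglial-like cells. In microglial-like cells it was at 115, 109.8 and 119 CPM in the sham + WT libraries and 151 and 159.6 CPM in the MCAO/R + WT libraries. Lrg1-/- libraries held 89.5, 116 and 125 CPM after sham surgery and 77.6, 90.2 and 87.2 CPM after MCAO/R. The MCAO/R + WT libraries were the highest and the sham groups overlapped. After MCAO/R the genotypes differed by -0.86 ± 0.13 on the log2 scale (adjusted p = 0.000244). The response in Lrg1-/- minus that in WT was -0.80 ± 0.18 (adjusted p = 0.0101), and both were called under all alternatives. Within cluster 1.1 alone Slc11a1 was at 149.9 and 155 CPM in the MCAO/R + WT libraries and 86.3, 94.2 and 88.8 CPM in the MCAO/R + Lrg1-/- libraries. The WT response by itself, 0.44 ± 0.13 (adjusted p = 0.0228), was lost without sham + WT replicate 1 (adjusted p = 0.0535), sham + WT replicate 2 (0.0849), sham + WT replicate 3 (0.0503), MCAO/R + WT replicate 1 (0.0637) and MCAO/R + WT replicate 2 (0.126).

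In macrophage-like cells Slc11a1 was at 81.02, 69.9 and 69.1 CPM in the sham + WT libraries and 158 and 149 CPM in the MCAO/R + WT libraries. With Lrg1 deleted, the values were 56.8, 72.9 and 84.5 CPM after sham surgery and 60.6, 99.1 and 74.7 CPM after MCAO/R. The MCAO/R + WT libraries were again the highest. The WT response was 1.07 ± 0.21 (adjusted p = 0.00578), lost when thinned. The genotype difference after MCAO/R was -0.93 ± 0.22 (adjusted p = 0.00802), lost when thinned. Within cluster 6.1 Slc11a1 was at 153 and 149 CPM in the MCAO/R + WT libraries and 99.3 and 89.8 CPM in MCAO/R + Lrg1-/- replicates 2 and 5. Within cluster 0.0.3 it was at 120.0 CPM in MCAO/R + WT replicate 1 and 52.3, 43.1 and 48.3 CPM in the MCAO/R + Lrg1-/- libraries, so the genotypes did not overlap in either cluster.

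Oligodendrocyte-like cells held more Slc11a1 in MCAO/R + Lrg1-/- than in MCAO/R + WT libraries, at 1.23 (adjusted p = 0.0165, lost without MCAO/R + Lrg1-/- replicate 5 (log2 difference 0.73) and MCAO/R + WT replicate 2, adjusted p = 0.0799 to 0.154, and also with doublets kept, at 0.55, when thinned and with only the libraries compared), with a Lrg1-/- response of 1.35 (adjusted p = 0.0311, lost without sham + Lrg1-/- replicate 1, 2 or 5 and MCAO/R + Lrg1-/- replicate 5 (log2 difference 0.85), adjusted p = 0.0672 to 0.117, and also at 10% mitochondrial UMIs, with doublets kept, at 0.79 and when thinned). Red blood cell-like cells differed by -1.40 (adjusted p = 0.03, lost without MCAO/R + WT replicate 1 (log2 difference -0.87) or 2, adjusted p = 0.0521 to 0.659, and also without cells over 5% haemoglobin, when thinned and with only the libraries compared) after MCAO/R. Choroid plexus epithelial-like cells differed by 2.01 (adjusted p = 0.0101, lost without sham + WT replicate 2, adjusted p = 0.0718, and also when thinned) in sham mice, or 2.79 without sham + WT replicate 1.

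Within a library, cells with more haemoglobin RNA were set against cells with less, which compares cells of the same suspension. In Lrg1-/- libraries the cells were divided at the median share of the library, while in WT libraries, where most cells held no haemoglobin UMI, cells with at least 1 were set against cells with none. Of 30 tests (10 genes in microglial-, macrophage- and endothelial-like cells, exact sign-flip permutation over libraries), 2 passed after adjustment, both in microglial-like cells. Hmox1 was lower in the cells with more haemoglobin, by a mean log2 difference of -0.34 ± 0.42 (SD, n = 11 libraries, higher in 1 of 11, exact permutation, adjusted p = 0.0293). Ftl1 was lower as well, at -0.20 ± 0.20 (higher in 1 of 11, exact permutation, adjusted p = 0.0293). In the 6 Lrg1-/- libraries the means were -0.46 and -0.32, with 0 of 6 higher, and in the 5 WT libraries -0.19 and -0.05.

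Neither difference passed under every setting. Of the 30 tests, 0 passed when only the cells with the least and the most haemoglobin were compared or when cells were thinned. In microglial- and endothelial-like cells of all 6 Lrg1-/- libraries the cells with more haemoglobin had fewer UMIs at the median, and in all 5 WT libraries they had more. Further genes moved one way in every Lrg1-/- library and did not pass over all libraries. In macrophage-like cells the mean of these libraries was -0.84 for Hmox1 and -0.68 for Blvra (higher in 0 of 5) and 0.42 for Fth1 (higher in 5 of 5). In endothelial-like cells it was 0.85 for Trf, 0.62 for Slc11a1 and 0.31 for Ftl1 (higher in 6 of 6). In microglial-like cells Blvrb went the other way from Hmox1 and Ftl1, at 0.16 (higher in 6 of 6), while in WT libraries it was at -0.12 (higher in 0 of 5). In the WT libraries, microglial Tfrc and endothelial Fth1 were higher in 5 of 5, and microglial Slc11a1 and endothelial Blvrb, Tfrc and Cd163 in 0 of 5.

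**Figure D4:**
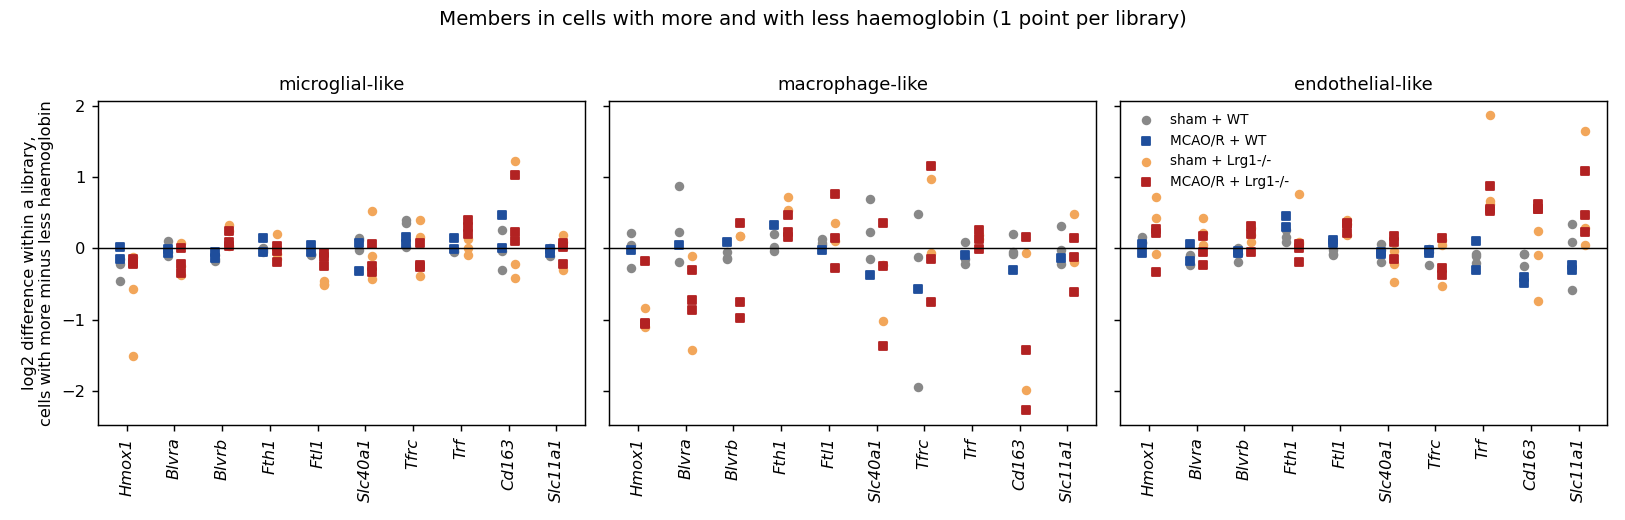
log2 difference of each of the 10 genes between cells with more and with less haemoglobin of the same library, in microglial-, macrophage- and endothelial-like cells, with 1 point per library. In microglial-like cells the Hmox1 and Ftl1 points of all 6 Lrg1-/- libraries lie below 0.

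The wider pathway was described by 61 further genes in 7 lists. After MCAO/R they were called higher in 60 and lower in 20 of 636 tests in WT, or 12.6% beside 7.47% of all genes. In Lrg1-/- mice they were called higher in 61 and lower in 13 of 573, or 12.9% beside 9.63%. Between genotypes the shares were near those of all genes. They were called higher in 65 and lower in 32 of 621 tests after MCAO/R, or 15.6% beside 13.9%, and higher in 41 and lower in 21 of 573 in sham mice, or 10.8% beside 11%. Their median log2 differences were 0.08, 0.19, 0.16 and 0.11 in that order, and those of all genes -0.0024, 0.0019, 0.028 and 0.0023.

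The iron uptake list, of 12 genes, had 22 tests called higher and 2 lower of 84 after MCAO/R in WT and 19 higher and 1 lower of 75 in Lrg1-/- mice. The higher calls were 26.2% and 25.3% of its tests, beside 3.74% and 4.99% of all genes. Lcn2, lipocalin 2, which binds iron-carrying siderophores, was called higher in 11 of 14 cell types in WT and in 8 of 12 in Lrg1-/- mice. Neutrophils carry Lcn2, and the neutrophil transcripts S100a8, S100a9 and Retnlg were called higher after MCAO/R in 3 of 42 tests over cell types in WT (median log2 difference 1.71) and 16 of 36 in Lrg1-/- mice (2.96), lower in 0, and their part in these calls was not tested. In endothelial-like cells Lcn2 was at 11.5, 20.1 and 9.27 CPM in the sham + WT libraries and 3721 and 2791 CPM in the MCAO/R + WT libraries. The sham + Lrg1-/- libraries held 45.5, 14.9 and 264 CPM, and the MCAO/R + Lrg1-/- libraries 557, 2095 and 1133 CPM. Slc39a14, which carries iron that is not bound to transferrin, was called higher in 6 of 14 and in 10 of 12 cell types. In microglial-like cells it was at 7.54, 8.26 and 8.95 CPM in the sham + WT libraries and 35.4 and 12.1 CPM in the MCAO/R + WT libraries. Values in the knockouts were 19.6, 18.3 and 14.8 CPM (sham) and 46.4, 64.04 and 58.4 CPM (MCAO/R).

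The list of haem- and redox-sensing regulators and their targets, of 8 genes, had 21 tests higher and 1 lower of 91 after MCAO/R in WT and 19 higher and 3 lower of 83 in Lrg1-/- mice, so that higher calls were 23.1% and 22.9% of its tests beside the same shares of all genes. Slc7a11, the cystine carrier, was called higher in 6 of 14 and 7 of 12 cell types, and Srxn1, sulfiredoxin, in 4 of 14 and 4 of 12. In microglial-like cells Slc7a11 rose by 3.01 ± 0.22 on the log2 scale in WT (adjusted p = 6.5e-07) and by 1.47 ± 0.22 in Lrg1-/- mice (adjusted p = 0.000283), and the response in Lrg1-/- minus that in WT was -1.54 ± 0.32 (adjusted p = 0.00707). Ncoa4, which hands ferritin to the lysosome for iron release, was called lower in 3 of 14 and 2 of 13 cell types. The iron export list had 7 tests higher and 3 lower of 60 in WT (16.7% called, beside 7.47% of all genes) and 1 higher and 3 lower of 53 in Lrg1-/- mice (7.55%, below the 9.63% of all genes). Cp, the ferroxidase ceruloplasmin that works with ferroportin, was called higher in 4 of 14 cell types in WT and in 1 of 12 in Lrg1-/- mice.

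Between genotypes, the haem synthesis list had 23 tests higher and 2 lower of 117 after MCAO/R (19.7% higher, beside 7.19% of all genes) and 17 higher and 2 lower of 106 in sham mice (16.04% higher, beside 5.6%). Its leading gene was Alas2, the haem synthesis enzyme of red blood cell precursors, called higher in 13 of 14 cell types after MCAO/R (median log2 difference of 6.15) and in 10 of 12 in sham mice (6.06). Alad, the next enzyme of the pathway, was called higher in 5 of 13 and 3 of 12, and Slc25a37, the mitochondrial iron carrier mitoferrin 1, in 6 of 14 and 2 of 12. The 4 haemoglobin transcripts were called higher in Lrg1-/- in 56 of 56 tests over the same cell types after MCAO/R and in 49 of 52 in sham mice.

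Across cell types of the sham + WT group, levels not scaled between libraries were ordered as follows. Hmox1 was highest in macrophage-like cells at 376 ± 8.62 CPM (SD, n = 3), clear of microglial-like cells at 66.9 ± 11.3 CPM, which overlapped monocyte-like cells at 60.8 ± 20.9 CPM. Blvra and Blvrb were highest in macrophage-like cells at 102 ± 3.69 and 404 ± 11.3 CPM, and overlapped the next type. Fth1 was highest in oligodendrocyte-like cells at 14138 ± 277 CPM and Ftl1 in macrophage-like cells at 6114 ± 133 CPM, both clear of the next type. Slc40a1 and Tfrc were highest in endothelial-like cells at 367 ± 30.1 and 394 ± 80.7 CPM and Trf in oligodendrocyte-like cells at 4102 ± 68.7 CPM, all clear of the next. Slc11a1 was highest in microglial-like cells at 106 ± 5.65 CPM, overlapping the next.

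The gene most like each member in pattern was found over 61 pairs of cell type and group (Pearson's r of the levels, 15921 genes considered; pairs of a group share libraries), as a description. Hmox1 was most like Ms4a6d (r = 0.906), Ftl1 like Cd14 (0.905), Cd163 like Mrc1 (0.929) and Slc11a1 like Lrrc25 (0.925). Slc40a1 was most like Arap3 (0.779), Tfrc like Pcmtd1 (0.844), Trf like Hmox2 (0.806), Fth1 like Card19 (0.870), Blvrb like Smagp (0.846) and Blvra like Igf1 (0.747).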

How the data were processed

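The deposited files of the 11 libraries hold UMI counts, not normalized, for each gene in each barcode, which the authors made with Cell Ranger and STAR on mm10 per the labels (version 7.0.1 per the file headers, while the version in the methods differs). Barcodes were filtered as described, 7136 doublets were removed (Scrublet, expected rate 6%), and cells were clustered with neighbours balanced over libraries (scanpy 1.11.5) and named by markers. Doublets were taken at the automatic threshold in 5 libraries (3.61 to 5.46% of cells; 4 of the 5 WT libraries) and as the highest 6% of scores in the 6 where it found almost none (5 of the 6 Lrg1-/- libraries), so the rule differed largely by genotype. Counts were summed per library and cell type with at least 20 cells and tested with edgeR 4.0.16 in R 4.3.3 (glmQLFit, TMM, filterByExpr, all groups in 1 fit, Benjamini-Hochberg adjustment over all genes of a cell type). DESeq2 1.42.0 was an alternative. Levels within clusters were added after the data were seen. The procedure was tested on simulated data for the genotypes after MCAO/R. Simulated log2 differences of 1 were called in 56.1% of cases in microglial-like, 19.6% in macrophage-like and 45.4% in endothelial-like cells. Those of 2 were called in 79.8%, 66.7% and 76.5%. Far fewer genes were changed in the simulation than were called in the data. In microglial-like cells these were 98 and 99 of 16610 genes at differences of 1 and 2, beside 29.9% of genes called. The rates therefore need not hold for the data, but a gene that was not called may still differ. Free RNA was not removed, the part of Trf that free RNA from oligodendrocyte-like cells could carry into other cell types is not reported here, and depth limits the precision of low genes. All members were named in every comparison, and of each pathway list at most 2 genes, those called in most cell types. Replicate numbers did not pair the samples. Members, lists and tests were chosen with earlier results of these data known.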

Additional observations from a re-analysis of the deposited data

Results flagged for a closer look

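The response to MCAO/R differed between the genotypes for 4 members, in 4 of 114 tests in named cell types, or 3.51%, which is close to the 2.07% of all genes. This was by a test of the difference itself (edgeR's quasi-likelihood test, interaction term). The response in Lrg1-/- minus that in WT was 0.68 on the log2 scale for Blvra and -0.80 for Slc11a1 in microglial-like cells. In oligodendrocyte-like cells it was 1.41 for Blvrb and 1.59 for Trf. That of Slc11a1 was kept under all alternatives that could be run, and the other 3 were lost without at least 1 library, named beside them above. Those of Blvra and Blvrb were also lost with cells thinned to 1000 UMIs, at 0.29 and 1.64.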

How the results depend on the processing

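None of the 104 calls of members reversed under the alternatives run. Of the calls that could be tested again, 102 of 104 were kept with DESeq2, 104 with RLE size factors, 99 without the filter on low counts, 102 with haemoglobin transcripts left out, 97 without cells over 5% haemoglobin, 93 with doublets kept, 92 of 103 when clustered without haemoglobin transcripts, 92 of 100 at 10% mitochondrial UMIs, 72 with a replicate block, 68 of 100 with only the libraries compared and 65 of 101 with cells thinned to 1000 UMIs. Leaving out red blood cell-like cells (29, 15, 19, 32 and 4 calls in the order genotypes after MCAO/R, genotypes in sham mice, MCAO/R in WT, MCAO/R in Lrg1-/- mice and difference in response) and counting 3 large unnamed clusters too (31, 15, 22, 34 and 4) were chosen after seeing the data. Members called between genotypes after MCAO/R numbered 30, but 47 without the filter, 16 when thinned, 12 with only the libraries compared, and 9 to 36 when 1 library was left out. In sham mice they numbered 15, but 7 when thinned, and 6 to 19 when 1 library was left out. After MCAO/R in WT they numbered 21, but 38 without the filter, 32 with only the libraries compared and 8 to 29 when 1 library was left out, and in Lrg1-/- mice 34, but 54 without the filter and 17 to 36. The 4 differences in response became 8 with DESeq2, 13 without the filter and 1 to 5 when 1 library was left out, and could not be fitted with only the libraries compared. The 2 differences within libraries became 0 between the cells with the least and the most haemoglobin, 0 when thinned and 0 to 3 when 1 library was left out. The haemoglobin difference of 5.45 points was 3.40 without clusters led by haemoglobin, 6.11 over all barcodes and 4.72 to 5.85 when 1 library was left out. The share of all genes called moved as well, not always as the members did. Between genotypes after MCAO/R it was 13.9%, but 9.98% without the filter, 10.6% when thinned and 6.84% with only the libraries compared. In sham mice it was 11%, but 7.49% when thinned. After MCAO/R in WT it was 7.47%, but 5.84% without the filter and 10.7% with only the libraries compared. In Lrg1-/- mice it was 9.63%, but 7.35% without the filter. For the difference in response it was 2.07%, but 3.38% with DESeq2 and 2.28% without the filter. Thinned cells hold fewer UMIs by construction, and the cause of the other changes, of which some were rises with fewer libraries, was not tested.

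With the replicate number as a block, the 15 calls in sham mice became 6, and the other counts were 21 and 16 and 32 and 4 for the genotypes after MCAO/R, MCAO/R in WT, MCAO/R in Lrg1-/- mice and the difference in response. The share of all genes called in sham mice was then 5.15% instead of 11%. In the order of the other counts it was 10.8%, 5.29%, 7.87% and 1.43%, instead of 13.9%, 7.47%, 9.63% and 2.07%. Of the 15 calls in sham mice, 0 were kept under every alternative run. The numbers did not pair the samples, since deviations of same-numbered libraries correlated at -0.26 to 0.13 over 39 pairs, 1 of them over 0.1.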
